A study of Mus musculus with 10 samples.

Results

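The 9 genes described here, of 55450 annotated genes, are Sqle, Lss, Cyp51, Tm7sf2, Lbr, Msmo1, Nsdhl, Hsd17b7 and Sc5d, which encode the enzymes that take squalene through lanosterol towards cholesterol. They were chosen by name. A promoter was the 2 kb on either side of any transcription start site (TSS) in the GENCODE mouse annotation, and all 9 symbols were found in it. Chromatin immunoprecipitation with sequencing (ChIP-seq) with antibodies against the polymerase of messenger RNA synthesis (Pol II), Srebp2 and Qki-5 had been performed in Qk-/- and in WT oligodendrocytes obtained from cultured neural stem cells (NSCs) of an FvB/C57BL6 hybrid background. By the study's methods, the NSCs came from whole brains of newborn Nestin-CreERT2 pups with Qk alleles flanked by loxP sites, and Qk was deleted in culture by 4-hydroxytamoxifen. Both genotypes were differentiated in medium with the thyroid hormone T3. Passage 7 cells served for Qki-5 and Pol II, and passage 8 cells for Srebp2. Each antibody gave 1 library per genotype, so that differences between Qk-/- and WT have no replicate check and no test, and n = 1 holds for every value below.

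The deposited data were 6 lists of called peaks. They held 427 Qki-5 peaks in Qk-/- cells and 7539 in WT cells, 28 Srebp2 peaks in Qk-/- cells and 77 in WT cells, and 12835 Pol II peaks in Qk-/- cells and 32280 in WT cells. The Qki-5 and Srebp2 lists are shorter than those the study describes, so a missing call below refers to the deposited lists alone. Peaks for Qki-5 and for Pol II are all named with the prefix mNSC but Srebp2 peaks with the prefix OL, whereas the labels call every sample a differentiated oligodendrocyte. Whether the Qki-5 and Pol II lists come from the same kind of cells as the Srebp2 lists was not tested. The number of reads behind each list is unknown. In every pair the Qk-/- list was shorter, and library depth and genotype cannot be told apart as sources of that gap. Genes that mark oligodendrocytes were mostly without Pol II: of 10, only Cnp carried a promoter peak, at 18.4-fold in Qk-/- cells and 33.4-fold in WT cells, and those with none in either genotype included Mbp, Mag, Mog, Mobp, Cldn11, Aspa, Myrf and Opalin. Of 6 NSC and astrocyte markers 5 carried a Pol II peak in Qk-/- and 5 in WT cells, and of 5 precursor markers 3 did in Qk-/- and 4 in WT cells. Of 4 neuron markers 0 did in Qk-/- and 1 in WT cells, and of 4 microglia markers 0 did in either. In such bulk chromatin, fewer bound cells and less binding per cell cannot be told apart, and the part of cell composition in the values below was not tested. The Qk promoter itself had no Qki-5 peak in Qk-/- cells, against one of 8.13-fold in WT cells, and Pol II peaks of 9.48-fold in Qk-/- and 14.9-fold in WT cells. A promoter peak does not check the deletion, which removes exon 2.

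Cholesterol is a main lipid of myelin, and oligodendrocytes make much of it themselves. Squalene, an open-chain intermediate, is oxidized by squalene epoxidase (Sqle), and the product is folded into lanosterol, the first sterol, by lanosterol synthase (Lss). Cyp51 removes a methyl group from lanosterol, and the sterol reductases Tm7sf2 and Lbr saturate the double bond this leaves. Lbr is also the lamin B receptor of the inner nuclear membrane. Msmo1, Nsdhl and Hsd17b7 work in turn to strip the remaining surplus methyl groups, by oxidation, decarboxylation and reduction of the resulting ketone. Sc5d, a sterol desaturase, acts near the end of the route. Srebp2, encoded by Srebf2, is a transcription factor held in membranes until sterols run low, and it is known to act at promoters of this pathway beside factors that bind CCAAT boxes and GC boxes. Qki-5, 1 of the RNA-binding proteins spliced from Qk, resides in the nucleus. The comparison asked where the 3 proteins lay on these genes and whether their peaks were still called without Qk.

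The 170 bp before the first TSS are given for 6 of the genes in the orientation of transcription, read from the GRCm38 (mm10) assembly of RefSeq. Sqle, Cyp51, Msmo1 and Hsd17b7 are shown because they had Srebp2 peaks in both genotypes, Lss because it had one only in WT cells, and Nsdhl because it had none. Capitals mark CCAAT boxes on either strand, so that a box on the opposite strand reads ATTGG.
Sqle: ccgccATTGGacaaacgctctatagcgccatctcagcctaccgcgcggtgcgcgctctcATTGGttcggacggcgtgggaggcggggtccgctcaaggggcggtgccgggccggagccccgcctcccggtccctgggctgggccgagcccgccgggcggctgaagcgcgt
Cyp51: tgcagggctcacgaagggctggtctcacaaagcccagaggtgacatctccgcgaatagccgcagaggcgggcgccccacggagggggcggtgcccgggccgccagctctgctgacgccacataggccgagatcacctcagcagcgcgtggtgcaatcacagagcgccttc
Msmo1: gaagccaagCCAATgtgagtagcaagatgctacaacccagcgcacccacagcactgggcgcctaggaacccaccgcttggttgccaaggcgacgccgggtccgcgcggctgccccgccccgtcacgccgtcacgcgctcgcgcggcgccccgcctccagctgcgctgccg
Hsd17b7: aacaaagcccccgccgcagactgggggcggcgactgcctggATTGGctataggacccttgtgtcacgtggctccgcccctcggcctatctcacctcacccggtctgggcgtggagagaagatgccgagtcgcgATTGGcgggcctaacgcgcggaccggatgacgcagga
Lss: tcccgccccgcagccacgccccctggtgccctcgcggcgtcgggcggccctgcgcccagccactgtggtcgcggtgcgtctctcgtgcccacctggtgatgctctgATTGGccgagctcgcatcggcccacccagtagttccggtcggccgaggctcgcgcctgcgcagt
Nsdhl: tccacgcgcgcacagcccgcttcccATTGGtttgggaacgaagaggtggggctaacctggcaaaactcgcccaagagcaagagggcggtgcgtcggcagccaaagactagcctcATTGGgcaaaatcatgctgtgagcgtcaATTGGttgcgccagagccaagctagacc
The stretches lie on chromosome 15 from 59314911 to 59315080 on the plus strand (Sqle), chromosome 5 from 4104747 to 4104916 on the minus strand (Cyp51), chromosome 8 from 64733793 to 64733962 on the minus strand (Msmo1), chromosome 1 from 169969242 to 169969411 on the minus strand (Hsd17b7), chromosome 10 from 76531437 to 76531606 on the plus strand (Lss) and chromosome X from 72918387 to 72918556 on the plus strand (Nsdhl). The other 3 genes are annotated on the minus strand, Tm7sf2 on chromosome 19 from 6062821 to 6068373, Lbr on chromosome 1 from 181815335 to 181843046 and Sc5d on chromosome 9 from 42251595 to 42264256. For Tm7sf2 and Lbr these bounds extend upstream of the first TSS used here, so their 170 bp windows lie inside the annotated gene.

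CCAAT boxes were shared by nearly all of these promoters. Within 170 bp upstream, 8 of the 9 genes had the letters CCAAT on one strand or the other, with Cyp51 the exception, against 29.1% of 21938 protein-coding genes and 57.8% of the 64 with a WT Srebp2 promoter peak. At least 2 boxes stood upstream of Sqle, Lbr, Nsdhl and Hsd17b7, that is 4 of 9 genes (44.4%), against 8.08% of all protein-coding genes and 32.8% of those with a WT Srebp2 promoter peak. The GC box letters GGGCGG were found upstream of 9 of 9 genes, against 37.9% of all and 71.9% of those with a WT Srebp2 peak. All 9 genes had a WT Pol II promoter peak. Among the 11879 protein-coding genes with one, 54.6% had a GC box and 30% a CCAAT box. The GC content of the 9 windows ran from 58.8% (Nsdhl) to 74.1% (Sqle and Lss), and its part in these counts was not tested. The E-box letters CACGTG stood upstream of Hsd17b7 and Sc5d, 2 of 9 genes, against 5.07% of all genes and 12.5% of those with a WT Srebp2 peak.

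The core letters of a sterol regulatory element, TCACNCCAC, were absent from all 9 upstream windows and were present in 0.684% of all. With 1 differing base allowed, 2 of 9 genes (22.2%) had a match, against 14.9% of all and 34.4% of those with a WT Srebp2 promoter peak. In Cyp51 it read TGACGCCAC, from 59 to 51 bp before the TSS and it lay 10 bp from the Qk-/- Srebp2 summit, the base of highest signal, and 326 bp from the WT summit. In Hsd17b7 one match read TCACCTCAC, from 81 to 73 bp before the TSS, 45 bp from the Qk-/- summit and 18 bp from the WT summit. The CCAAT box of Hsd17b7 at 129 bp before the TSS lay 5 bp from its Qk-/- and 32 bp from its WT Srebp2 summit, and the Sqle box at 111 bp lay 77 bp from its Qk-/- and 4 bp from its WT summit. Such matches describe letters only and do not identify bound sites.

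Srebp2 peaks were called at 4 of the 9 promoters in Qk-/- cells and at 7 of 9 in WT cells. Over all protein-coding genes, 0.118% had a Qk-/- Srebp2 promoter peak and 0.292% had a WT one. Sqle, Cyp51, Msmo1 and Hsd17b7 were bound in both genotypes, Lss, Lbr and Sc5d were bound in WT cells alone, and Tm7sf2 and Nsdhl had no Srebp2 peak in either. Values are the fold enrichment at the summit over the local background estimated by the peak caller.

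Msmo1, the methylsterol oxidase, headed both lists. Its peak was 23.9-fold in Qk-/- cells, the highest of 28, and 57.6-fold in WT cells, the highest of 77. Cyp51 had a 15.1-fold peak in Qk-/- cells, placed 5, and a 50.2-fold peak in WT cells, placed 2. Sqle, which commits squalene to sterols, had 12.8-fold in Qk-/- cells, placed 7, and 37.2-fold in WT cells, placed 6. The lists differ in length, and as a share of each list Msmo1 stood in the top 3.57% in Qk-/- cells and 1.3% in WT cells, Cyp51 in the top 17.9% in Qk-/- cells and 2.6% in WT cells, and Sqle in the top 25% in Qk-/- cells and 7.79% in WT cells.

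Hsd17b7, the ketone reductase, had weaker Srebp2 peaks of 8.80-fold in Qk-/- cells and 11.5-fold in WT cells, placed 14 of 28 and 29 of 77. The cyclase gene Lss had no Qk-/- peak, against a 14.5-fold WT peak placed 20. Sc5d had no Qk-/- peak, against a 15.9-fold WT peak placed 19. At Lbr no Qk-/- peak was called, against a 9.45-fold WT peak placed 47, the weakest of the members. The −log10 q of the WT peaks ran from 10.2 at Lbr to 157 at Msmo1.

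**Figure D1:**
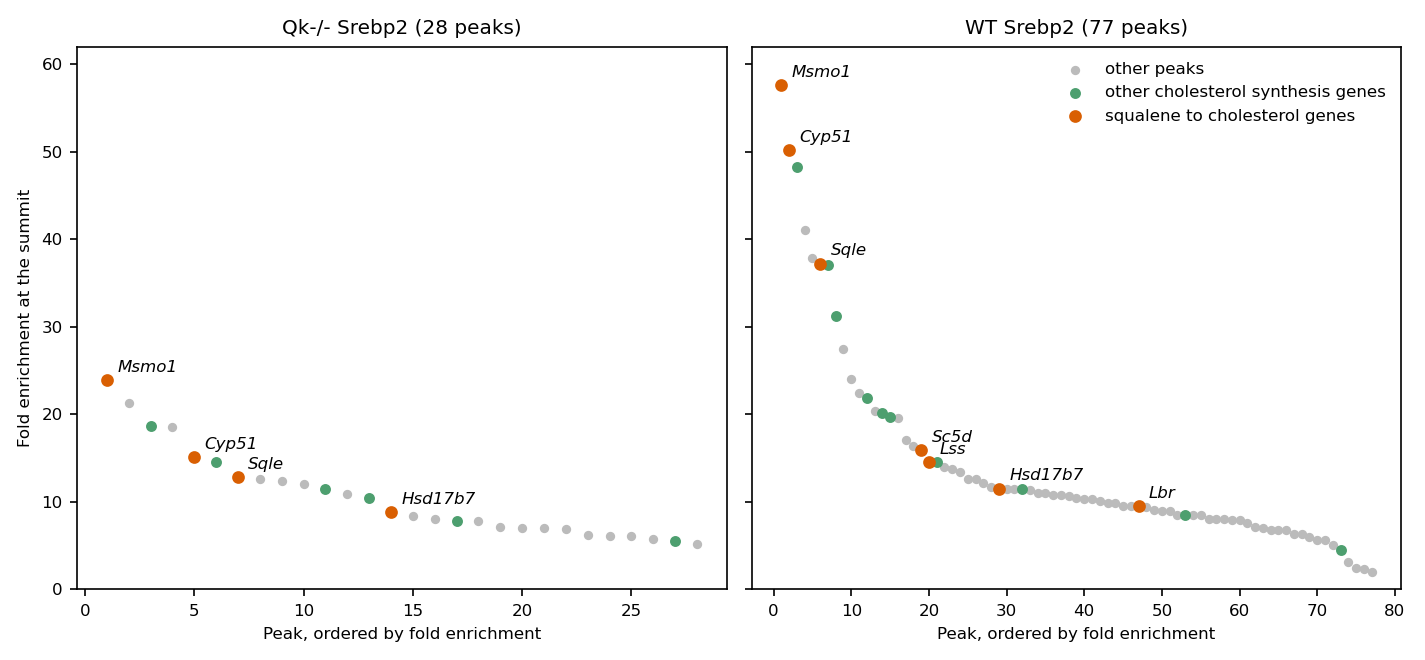
Fold enrichment at the summit of every Srebp2 peak, ordered from the highest to the lowest, in Qk-/- cells (left, 28 peaks) and WT cells (right, 77 peaks), with 1 library per genotype. Orange points are the peaks of the squalene to cholesterol genes, with Msmo1 first in both lists at 23.9-fold in Qk-/- cells and 57.6-fold in WT cells.

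Whether a WT Srebp2 peak was also called in Qk-/- cells went with its strength across the whole list. At promoters of protein-coding genes, 73.4% of the 64 bound in WT cells had no Qk-/- peak, against 3 of the 7 members (Lss, Lbr and Sc5d). Of the WT peaks placed 1 to 10, 0 of 10 were without an overlapping Qk-/- peak, a class that held Msmo1, Cyp51 and Sqle. Of those placed 11 to 30, 14 of 20 were without one (70%), among them Sc5d and Lss but not Hsd17b7. Of those placed 31 to 77, 45 of 47 were without one (95.7%), among them Lbr.

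Where both genotypes had a Srebp2 peak, the Qk-/- over WT ratio of fold enrichment was 0.301 at Cyp51, 0.345 at Sqle, 0.414 at Msmo1 and 0.765 at Hsd17b7. The median of the 4 genes was 0.38, beside 0.414 over all 17 protein-coding promoters with both peaks (quartiles 0.318 and 0.517). The ratio was below 1 at 4 of 4 members and at 17 of 17 promoters, and peaks were narrower in Qk-/- cells at the same 4 of 4 and 17 of 17. The peak of Sqle was 376 bp wide in Qk-/- cells and 673 bp in WT cells, and that of Cyp51 was 575 bp in Qk-/- cells and 1222 bp in WT cells. Msmo1 had widths of 448 bp in Qk-/- cells and 830 bp in WT cells, and Hsd17b7 of 202 bp in Qk-/- cells and 491 bp in WT cells. Each of the 4 Qk-/- peaks lay inside the WT peak of its gene.

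Qki-5 was called at 0 of the 9 promoters in Qk-/- cells and at 2 of 9 in WT cells, Cyp51 and Msmo1. The share of all protein-coding genes with a Qki-5 promoter peak was 0.870% in Qk-/- cells and 19.4% in WT cells. Among genes with WT Pol II at the promoter 34.6% also had WT Qki-5, and among those with WT Srebp2 54.7% did, beside 2 of the 9 members with WT Pol II (22.2%) and 2 of the 7 with WT Srebp2 (28.6%). The Cyp51 peak was 9.96-fold and 425 bp wide and placed 214 of 7539, in the top 2.84% of the list. The Msmo1 peak was 7.96-fold and 334 bp wide and placed 703, in the top 9.32%. Neither was called in Qk-/- cells, and over all genes 95.8% of the WT Qki-5-bound promoters had no Qk-/- peak. The genes with Qki-5 were those with the 2 highest Srebp2 peaks in WT cells, a description over few genes.

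Pol II was called at 6 of 9 promoters in Qk-/- cells and at 9 of 9 in WT cells. Over all protein-coding genes, 46.5% had a Qk-/- Pol II promoter peak and 54.1% had a WT one. Lss, Tm7sf2 and Nsdhl had Pol II in WT cells alone, at 7.41-, 9.02- and 10.2-fold, which were the 3 lowest WT values of the 9. Over all genes, 14.3% of WT Pol II-bound promoters had no Qk-/- peak. Among the 1448 promoters with a WT fold enrichment of 7.41 to 10.2, the span of these 3 genes, 24.2% had none. Among the 6569 promoters between 11 and 28, the span of the other 6, 3.08% had none.

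The 6 genes with Pol II in both genotypes differed in how far apart the values were. Cyp51 had 6.06-fold in Qk-/- cells and 16.8-fold in WT cells, a ratio of 0.36, with 11.5% of all promoters lower. Msmo1 had 9.43-fold in Qk-/- cells and 19.8-fold in WT cells (ratio 0.476), and Sc5d had 8.99-fold in Qk-/- cells and 16.4-fold in WT cells (ratio 0.549). Hsd17b7 carried the highest Pol II of the group, at 18.1-fold in Qk-/- cells and 28-fold in WT cells (ratio 0.646). Sqle differed least among those lower in Qk-/- cells, with 8.69-fold in Qk-/- cells and 11-fold in WT cells (ratio 0.789). Lbr alone was higher in Qk-/- cells, at 15.6-fold against 13.6-fold in WT cells (ratio 1.15, above that of 92.1% of promoters).

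**Figure D2:**
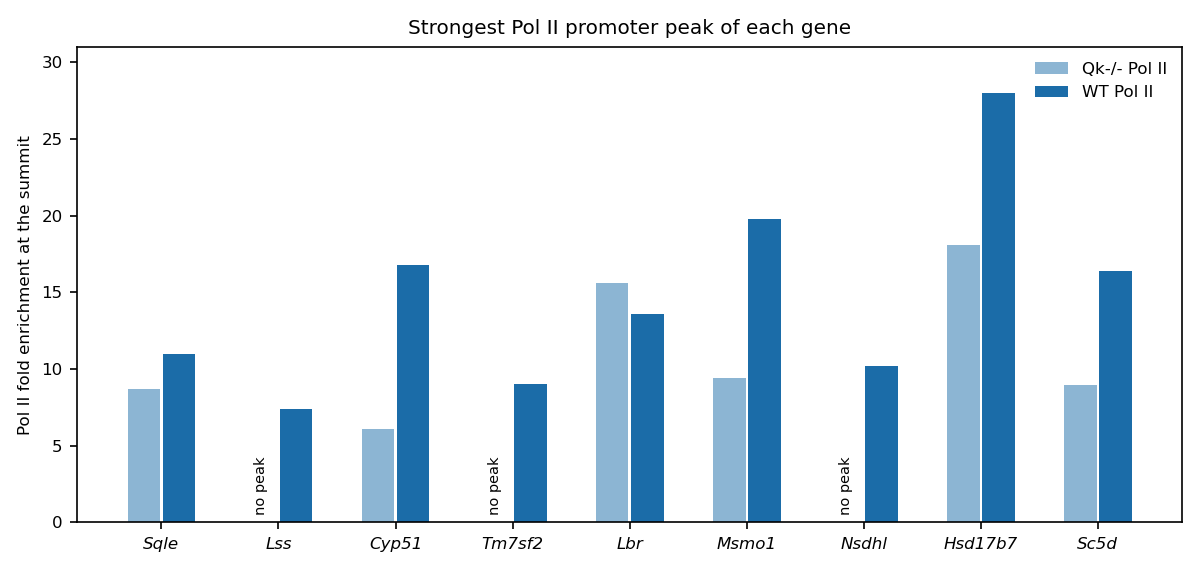
Fold enrichment at the summit of the strongest Pol II promoter peak of each gene, in Qk-/- cells (left bar of a pair) and WT cells (right bar), 1 library each. No peak was called in Qk-/- cells at Lss, Tm7sf2 and Nsdhl, and Lbr is the gene with the higher Qk-/- value, 15.6-fold against 13.6-fold in WT cells.

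As a group these ratios sat at the centre of the genome. Their median was 0.597, beside 0.61 over the 10177 protein-coding promoters with Pol II peaks in both genotypes (quartiles 0.458 and 0.817). The Qk-/- value was lower at 5 of 6 members and at 86.6% of all promoters, and the Qk-/- peak was narrower at 6 of 6 members and at 97.1% of all. The median shift at these 6 genes was thus of the size seen over all promoters with both peaks, with Cyp51 and Lbr at the ends of their range. Lss, Tm7sf2 and Nsdhl, without a Qk-/- Pol II peak, have no ratio and are left out of it. Within each list the members' median place was the top 43.9% in Qk-/- cells and the top 20.7% in WT cells, but the WT list holds many weaker peaks outside promoters.

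**Figure D3:**
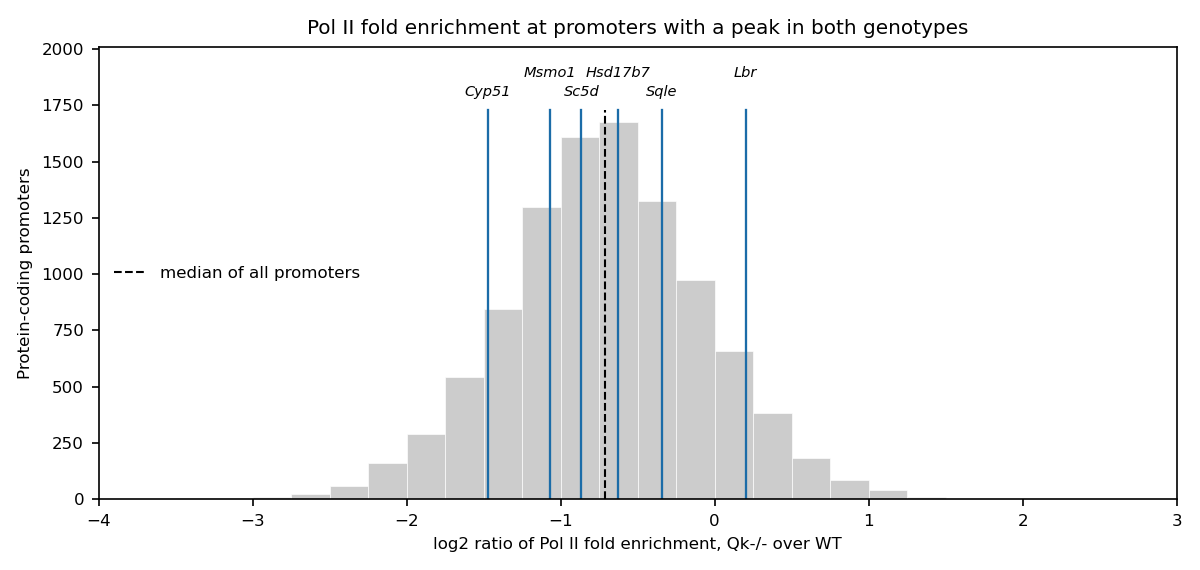
Distribution over 10177 protein-coding promoters of the log2 ratio of Pol II fold enrichment, Qk-/- over WT, in bins of 0.25, with 1 library per genotype. Blue lines mark the 6 genes with a peak in both genotypes, from Cyp51 (ratio 0.36) to Lbr (ratio 1.15), on either side of the median of all promoters (dashed, ratio 0.61).

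Pol II along the gene bodies was seen in WT cells only, at 2 genes. Msmo1 had 5 WT peaks beyond the promoter, between 3.88- and 5.55-fold, which with the promoter peak covered 25.3% of the gene, against 2.41% in Qk-/- cells. Tm7sf2 had 2 WT body peaks of 3.93- and 17.1-fold. The stronger one, 3425 bp wide, reached from the end of Tm7sf2 over promoters of the neighbouring genes Fau and Znhit2, so its signal cannot be given to Tm7sf2 alone. None of the 9 genes had a body peak in Qk-/- cells. Body peaks were found at 7.35% of Pol II-bound protein-coding genes in Qk-/- cells and at 33.1% in WT cells, so the gap at Msmo1 went with one across the lists.

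Srebp2 summits were mostly upstream of the TSS and Pol II summits mostly downstream. WT Srebp2 summits lay upstream of the nearest TSS at 6 of 7 members, and all 4 Qk-/- Srebp2 summits were upstream too. The WT positions were 16 bp upstream at Msmo1, 88 bp at Sc5d, 95 bp at Hsd17b7, 105 bp at Sqle, 113 bp at Lss and 134 bp at Lbr. The Lbr summit also lay inside the annotated gene, whose bounds extend upstream of the TSS used. At Cyp51 the WT summit was 271 bp downstream, in the untranslated region, whereas the Qk-/- summit was 45 bp upstream, 316 bp away. For the other 3 genes bound in both genotypes the Srebp2 summits were 18 bp (Msmo1), 27 bp (Hsd17b7) and 81 bp (Sqle) apart. Upstream summits made up 80.8% over the 26 protein-coding promoters with Qk-/- Srebp2 and 81.2% over the 64 with WT Srebp2.

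Pol II summits fell downstream of the nearest TSS at 4 of 6 members in Qk-/- cells and at 8 of 9 in WT cells. Over all Pol II-bound protein-coding promoters, 28.9% were upstream in Qk-/- cells and 30% in WT cells. Between genotypes the members' Pol II summits moved by 6 bp at Hsd17b7 to 94 bp at Msmo1. All 7 WT Srebp2 peaks and both WT Qki-5 peaks were contained in the WT Pol II peak of the same promoter. The Pol II peak was the wider at each of these genes, and the share contained over all bound promoters was not counted. The WT Srebp2 summit was upstream of the WT Pol II summit at 5 of these 7 genes, and downstream of it by 240 bp at Cyp51 and 165 bp at Hsd17b7. The Qki-5 summits were 77 bp (Msmo1) and 137 bp (Cyp51) downstream of the TSS. Relative to the WT Pol II summit, the Qki-5 summit was 106 bp downstream at Cyp51 and 172 bp upstream at Msmo1.

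**Figure D4:**
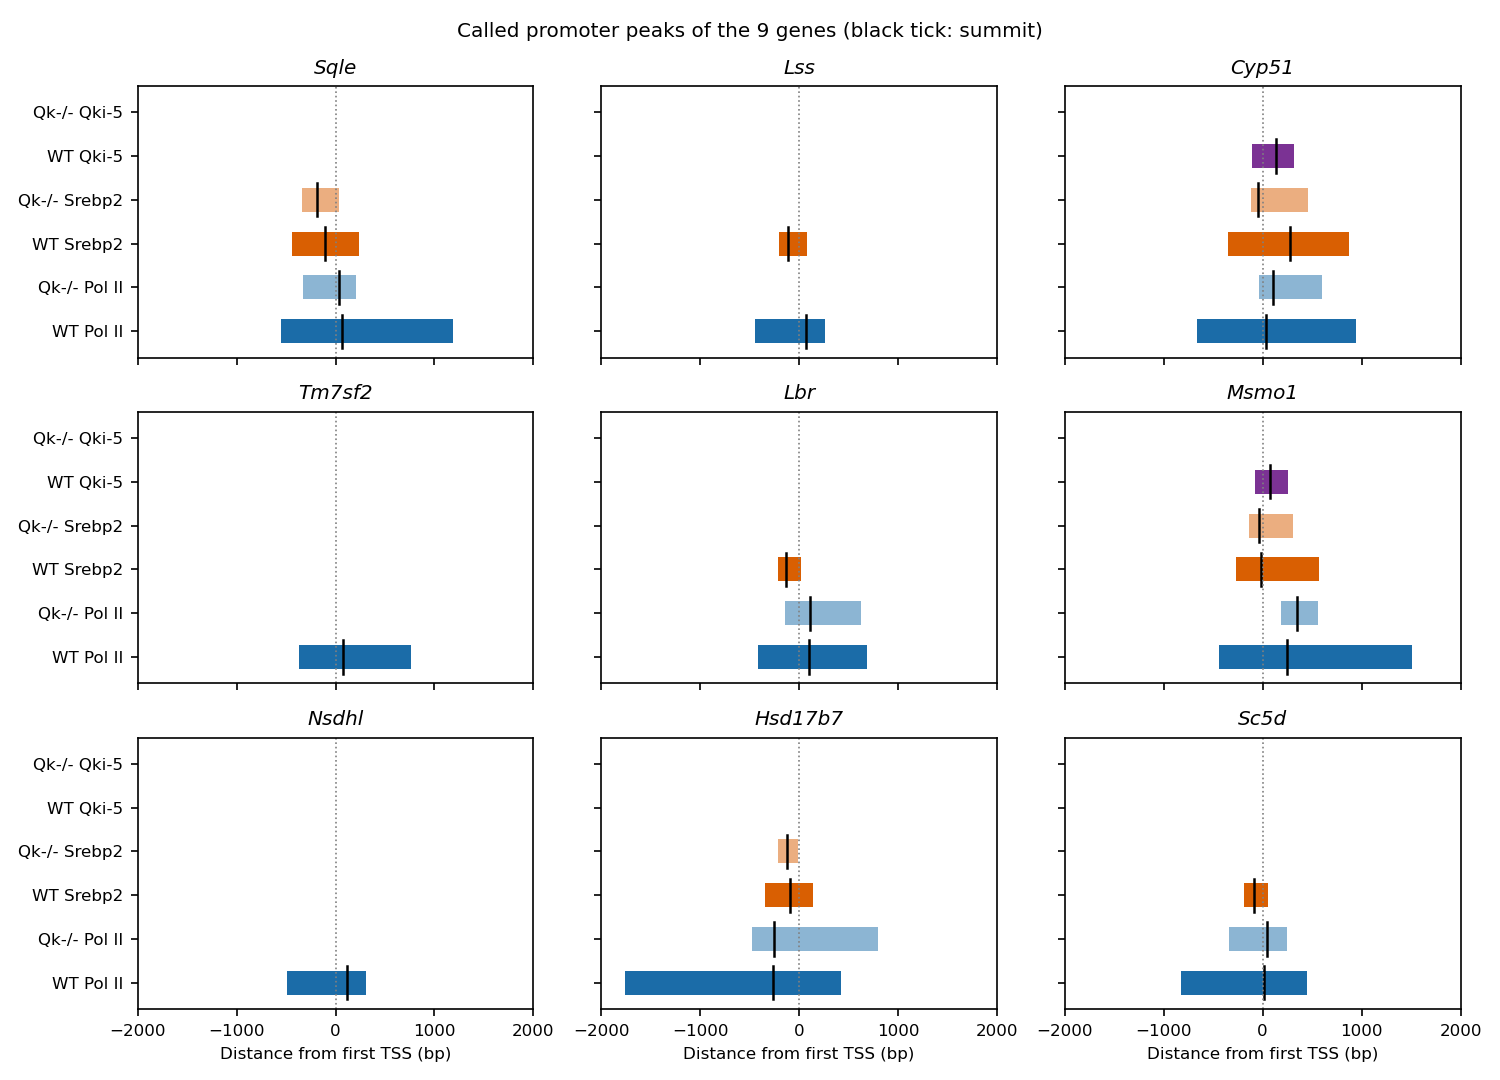
Called promoter peaks of the 9 genes by distance from the first TSS in bp, transcription running to the right, with Qk-/- above WT for each antibody (1 library each). Bars span the peak and black ticks mark the summit, and an empty row means that no peak was called there, as in all 9 rows for Qki-5 in Qk-/- cells.

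Peaks at 3 promoters were shared with other genes. The TSS of 3110045C21Rik, an antisense RNA transcribed away from Hsd17b7, lies 168 bp upstream of it, and all 4 Hsd17b7 peaks had their summits nearer to that TSS. The Pol II summits were 254 bp (Qk-/-) and 260 bp (WT) upstream of Hsd17b7, beyond the antisense start. Its Pol II peak covered 798 bp of the Hsd17b7 gene in Qk-/- cells and 427 bp in WT cells, although the WT peak was the wider at 2184 bp against 1270 bp in Qk-/- cells. Nsdhl shared its WT Pol II peak with Cetn2, a centrin gene whose TSS lies 146 bp upstream on the other strand. The Lbr promoter overlapped that of Gm26004, an annotated rRNA gene 1811 bp from its TSS. ChIP-seq carries no strand, so the reads of paired promoters cannot be divided.

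The rest of the pathway showed how these 9 genes sat in it. Of the 10 genes from acetyl-CoA to squalene or the branch beside it, Srebp2 was called at 5 in Qk-/- cells and at 9 in WT cells, all but Ggps1. Pol II was called at 8 of these in Qk-/- cells and at 10 in WT cells, with Fdps and Fdft1 (squalene synthase) the ones without a Qk-/- peak. Qki-5 was called at 0 in Qk-/- cells and at 3 in WT cells (Hmgcs1, Fdps and Ggps1), the highest of them 6.33-fold, below both member peaks. Ebp and Dhcr7, which act after zymosterol, had Pol II in both genotypes and neither Srebp2 nor Qki-5 in either.

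The combination of lists in which a promoter was called sorted the members into 5 patterns. Cyp51 and Msmo1 had WT Qki-5 and both Srebp2 and Pol II in both genotypes, a combination held by 7 protein-coding genes in all, the others being Hmgcs1, Insig1, Leng8, Pip4p1 and Srebf2. Srebf2 encodes Srebp2 and Insig1 a protein that helps to retain it in membranes. Sqle and Hsd17b7 had Srebp2 and Pol II in both genotypes without Qki-5, a combination that Pmvk and Idi1 of the pathway also had, and outside it only Acly, the ATP citrate lyase gene, among protein-coding genes. Lbr and Sc5d had WT Srebp2 and Pol II in both genotypes, as did 19 genes, 5 of them in the pathway. Lss, with WT Srebp2 and WT Pol II alone, was the 1 protein-coding gene with its pattern. Tm7sf2 and Nsdhl had WT Pol II alone, which 1513 genes (6.89%) shared.

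By place in the 6 lists, with a missing peak set to 100%, the gene outside the pathway nearest to Sqle, Cyp51 and Msmo1 was Srebf2. The mean absolute difference in place was 8.85 percentage points for Sqle, 20.2 for Cyp51 and 19.4 for Msmo1. Acly was nearest to Hsd17b7 at 2.95 points, and Acss2, an acetyl-CoA synthetase gene, was nearest to Lss at 7.21 points. Fam136a was nearest to Sc5d at 3.87 points and Dpysl2 to Lbr at 4.34 points. For Tm7sf2 and Nsdhl, each called in 1 list, many genes tied and none is named.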

How the data were processed

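Peak lists from ChIP-seq of Qk-/- and WT oligodendrocytes differentiated from NSCs were analysed, 6 in all, with 1 library for each antibody and genotype. Per the study's methods, reads were trimmed with Trim Galore, aligned with Bowtie2, freed of duplicates with SAMtools and called with MACS2 in paired-end mode at a q-value of 0.05 against input. The submitters' processing notes name Bowtie 1.2.2 and MACS2 2.1.2 and the mm10 build, so the aligner is given differently in the sources. Qki-5 and Pol II shared 1 input per genotype and Srebp2 had its own.

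The deposited lists hold, for each peak, the fold enrichment at the summit (a ratio of the ChIP signal to the local background), the −log10 p-value, the −log10 q-value, a score that is 10 times the −log10 q with decimals dropped, the bounds and the summit offset. Mapped read totals are not in them, so depth is unknown. Peaks were called per library. Since the deposited Qki-5 and Srebp2 lists are shorter than the study describes, the settings above may not be those of these lists. Lists called at 1 q-value can differ in length with depth, and a promoter without a peak is a promoter without a call.

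TSSs were those of GENCODE M21 basic transcripts (mm10). A promoter was taken as bound where it shared 1 bp or more with a peak, and its strongest peak by fold enrichment was used. Places are ranks of fold enrichment in a list, and shares are of 21951 protein-coding genes. Body peaks were Pol II peaks that overlapped a gene but none of its promoters. Motif letters were searched on both strands in 170 bp before the first TSS and around summits (pandas 2.3.3, numpy 2.4.6, pysam 0.24.0, samtools 1.23.1). The overlap, nearest-TSS and motif steps were checked on simulated data. No statistical test between genotypes was possible with 1 library per group, and none was run across promoters. All 9 members were named, with other genes of the pathway (some results are not reported here), the genes sharing their peaks and the nearest gene by place. The members, gene lists and letters were chosen with earlier results of these data known.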

Additional observations from a re-analysis of the deposited data

How the results depend on the processing

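Limits of the peak lists bound these values. A peak not called in Qk-/- cells may lie just under the threshold, read totals are unknown, and no difference between genotypes has a replicate. Of the alternative settings (promoters of 1 or 2.5 kb, stricter lists with q below 0.01 or fold enrichment from 5 up, summits in place of overlap, the nearest TSS alone, other rankings, RefSeq starts), 78 of 81 values stayed within the bounds set for them. For counts the bound was a ratio of 1.5. The strongest promoter peaks of the members all had summits within 343 bp of a TSS and at least 6.06-fold enrichment. The 1 kb, fold, q and summit settings could thus remove none of their calls, and that tally is a weak check. Ranked among promoter peaks only, the members' median place in the WT Pol II list was 40.2% in place of 20.7%, since the peaks outside promoters dropped out of the ranking. In the Qk-/- Pol II list the same setting gave 49.6% in place of 43.9%. With −log10 q in place of fold enrichment the median Qk-/- over WT ratio of Pol II was 0.29 in place of 0.597, beside 0.359 over all promoters. With 1 differing base allowed, 2 in place of 0 of the 7 WT Srebp2 peaks had the sterol element core within 100 bp of the summit, against 44.7% of 76 peaks, and in Qk-/- cells 4 of 4 member peaks did, against 59.3% of 27. Given to the nearest TSS alone, peaks were lost at Hsd17b7 only, in both genotypes. No paired analysis was possible because each group held 1 library.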
